A study of Mus musculus with 8 samples.

Results

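The genes described here encode the proteasome: the subunits of its 20S core and 19S cap, the activators and the inhibitor that dock on the core, and the chaperones that assemble both. They were taken as every gene whose symbol starts with Psma, Psmb, Psmc, Psmd, Psme, Psmf or Psmg followed by a digit, with the immunoproteasome subunits Psmb8, Psmb9 and Psmb10 left out. That rule gave 46 genes among the 22180 mouse genes that have a probe set of their own on the array. The symbol rule also took in Psmc3ip and Psme3ip1, which are named for partners of a subunit and of an activator and are not parts of the particle. Psma4 and Psme2b are not among the 46, since no probe set carried either symbol alone.

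Naive CD3+ T cells were purified by negative selection from the spleen and lymph nodes of 8-week-old female C57BL/6 mice, and total RNA was hybridised to Affymetrix Mouse Gene ST 2.0 arrays. The 8 conditions, with 1 array each, were untreated naive cells, LatA alone, and 3 stimuli sampled at 3 h and at 24 h. LatA is latrunculin A, a toxin that binds actin monomers and keeps them from forming filaments. The stimuli were soluble antibodies to CD3 and CD28 with an anti-hamster secondary antibody (sAb), the same soluble antibodies with LatA (sAb+LatA), and antibodies to CD3 and CD28 fixed to the plate (iAb). Cells were exposed to antibody for 3 h. The 24 h arrays hold cells that were then washed and cultured for a further 21 h. The time of the LatA array is given as control in the labels and as 3 h in the methods. All groups came from wild-type mice, and the sources used here do not say how many mice gave the RNA of an array.

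The proteasome is the protease that degrades ubiquitin-tagged proteins. Its 20S core is a barrel of stacked alpha and beta rings with the catalytic sites inside, and the 19S cap recognises ubiquitin, removes it, unfolds the substrate with a ring of ATPases and feeds it into the barrel. The core is built on dedicated chaperones, and other activators can take the place of the cap. T cells that leave the resting state grow and divide, and they make far more protein.

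Of the 46 genes, 44 were above background on at least 1 array, where background was the 95th percentile of 1447 chemosensory receptor genes on the same array (4.70 to 4.99 on the log2 scale). In all, 13376 of the 22180 genes were above it. Psma8, the testis form of an alpha subunit, was between 4.08 and 4.51, and Psmb11, the thymus form of a catalytic beta subunit, was between 3.70 and 4.20, so both stayed under background on every array. Psma5 was above background on 6 arrays, and the remaining 43 genes were above it on all 8. With 1 array per condition no difference between 2 arrays has a replicate error, and such differences are given below as measured, without a test. Differences of at least 1.5-fold, or 0.58 on the log2 scale, were counted as higher or lower.

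The arrays carried the T cell label: of the 9 listed T cell markers 6 were measured, and all 6 were above background on all 8 arrays. Cd4 went from 11.34 on naive to 10.62 on iAb 24 h, and Cd8a from 9.82 to 11.28. Of the 5 B cell markers measured, 2 to 5 were above background on an array, and the median of the 5 was between 4.80 and 5.53. Of the 4 natural killer cell markers measured, 1 to 2 were above background: Eomes, a transcription factor that activated CD8+ T cells also express, was so on all 8, with 6.89 on naive and 9.22 to 9.63 at 24 h, Klrb1c and Klre1 on none. Myeloid markers moved with stimulation: of the 7 listed markers above background on either array, 5 were at least 1.5-fold lower on iAb 24 h than on naive, and their median over the 9 markers measured went from 5.57 to 4.61. Csf1r, the receptor of macrophage colony-stimulating factor, went from 7.66 to 4.44. The part of these marker shifts in the proteasome values was not tested. In such bulk RNA, fewer cells of a type and less of an RNA per cell cannot be told apart. The sAb+LatA 3 h array had the lowest maximum, 13.32 against 14.15 to 14.30 on the other 7.

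The genes lie on 15 chromosomes, with 9 on chromosome 11, 6 each on chromosomes 2 and 14, and the others spread singly or in small numbers. A promoter window of 250 bases before to 50 bases after the gene start was listed by RefSeq for 38 of the 46 (mouse build GRCm38.p6). The letters TGACNNNGC, the core of the antioxidant response element that NFE2L1 and NFE2L2 are known to bind in proteasome genes, were found on either strand in 6 of the 38 windows. That is 15.8%, beside 14.0% of the windows of all 27025 genes listed and 16.5% of those of genes above background here. In 5 windows the core lay entirely upstream of the gene start used for the window. These stretches are shown because they include 2 of the 3 catalytic subunits. The capitals mark the 9 letters of the core. In Psmd12 and Psmc6 the core is on the opposite strand and is printed as its reverse complement.
Psmb5, chr14:54618009-54618067, minus strand: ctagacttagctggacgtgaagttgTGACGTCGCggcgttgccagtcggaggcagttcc
Psmb6, chr11:70525323-70525356, plus strand: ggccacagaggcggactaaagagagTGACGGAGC
Psmd9, chr5:123228134-123228189, plus strand: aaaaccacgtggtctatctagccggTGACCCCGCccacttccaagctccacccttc
Psmc6, chr14:45329574-45329630, plus strand: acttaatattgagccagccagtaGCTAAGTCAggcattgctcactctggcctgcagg
Psmd12, chr11:107479278-107479314, plus strand: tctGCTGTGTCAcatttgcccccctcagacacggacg
The core started 47 bases before the gene start in Psmb5, 9 bases before it in Psmb6 and 31 bases before it in Psmd9. The distance was 227 bases in Psmc6 and 247 in Psmd12. These distances use the gene start of the promoter window. The gene coordinates of Psmb6 start at 70525324 instead, and by those its core lies within the gene. In Psme4 it lay across the gene start. The other motifs searched on both strands were CCAAT, the NF-Y box, in 15 of 38 windows (39.5%, against 41.1% of all genes), CACGTG, the E-box, in 3 of 38 (7.89%, against 8.09%), and GGGCGG, the GC box, in 22 of 38 (57.9%, against 38.2% of all genes and 64.5% of those above background). None of these words lies inside another. Each share of the proteasome windows was within 10 percentage points of that of the expressed genes, and a match is a description of letters, not evidence of binding.

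Compared with naive, the median of the proteasome genes was higher on every antibody array, least with sAb at 3 h and most with iAb at 24 h, while 2 to 5 of the 44 lay below naive on each. The median difference from naive was 0.21 on sAb 3 h, 0.37 on sAb+LatA 3 h and 0.49 on iAb 3 h. At 24 h it was 0.54, 0.70 and 0.77 in the same order of stimuli. Over all genes tested, the median lay between -0.04 and 0.03 in these 6 comparisons, and 45.9% to 53.6% of these genes lay above naive. LatA without antibody had a median of 0.10, beside 0.02 for all genes.

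Counted at 1.5-fold, 3 of 44 genes were higher on sAb 3 h than on naive, where 6.18% of all genes tested were. The count was 7 of 44 on sAb+LatA 3 h (10.4% of all genes) and 17 of 44 on iAb 3 h (15.0%). At 24 h it was 20 of 44 with sAb (17.2%), 27 of 44 with sAb+LatA (19.6%) and 30 of 44 with iAb (21.2%). The 24 h shares of the proteasome genes were thus above those of all genes with each stimulus, whereas the sAb 3 h share was close to it. No array without antibody was labelled 24 h. In every comparison of a 24 h array with naive, here and below, antibody and time in culture therefore cannot be told apart. No proteasome gene was 1.5-fold lower than naive on any of the 6 arrays, while 3.54% of all genes were on sAb 3 h, 12.6% on iAb 3 h and 12.9% on iAb 24 h. With LatA alone none of 43 was 1.5-fold higher (0.918% of all genes).

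All 6 antibody arrays were above both naive and LatA for 32 of the 44 genes, which held for 16.9% of the 13376 genes above background. The iAb 24 h array was the highest of the 8 for 26 of 44, beside 18.8% of all genes, and sAb+LatA 24 h was the highest for 10, beside 11.6%. The counts at 24 h depend on the scale: with each array centred on its median over expressed genes, the number at least 1.5-fold above naive went from 20 to 11 with sAb, from 27 to 18 with sAb+LatA and from 30 to 18 with iAb. The shares of all genes were then 11.3%, 13.7% and 14.7%. The same centring put the median of all genes at -0.24 for iAb 24 h against naive and left the proteasome median at 0.52.

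**Figure D1:**
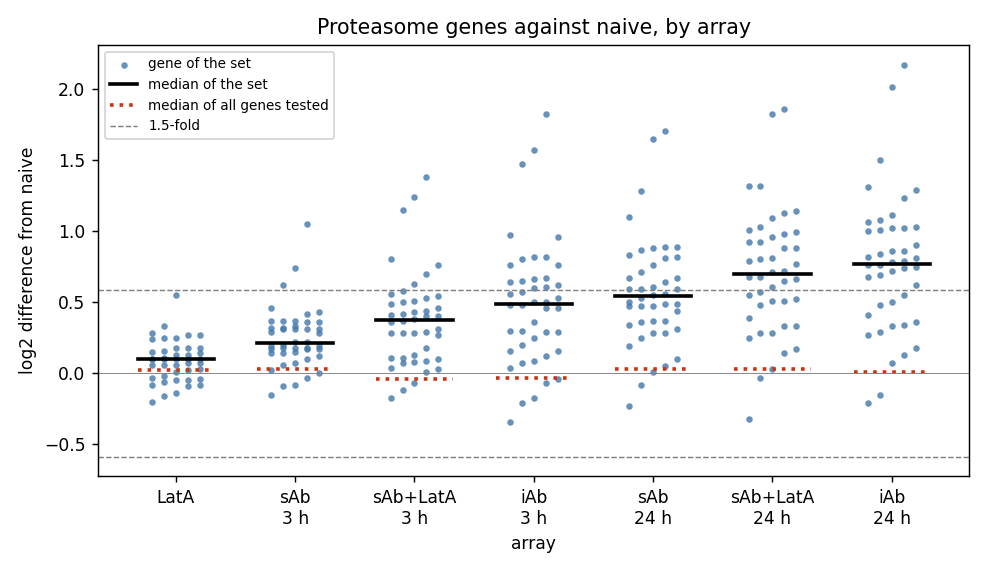
Log2 difference from the naive array (vertical axis) of each of the 44 proteasome genes above background (points; 43 for LatA), on the 7 other arrays (horizontal axis). Black bars are the medians of these genes, red dotted bars the medians of all genes tested and grey dashed lines 1.5-fold. The black medians climb from 0.10 with LatA to 0.77 on iAb 24 h, while the red ones stay between -0.04 and 0.03.

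**Figure D2:**
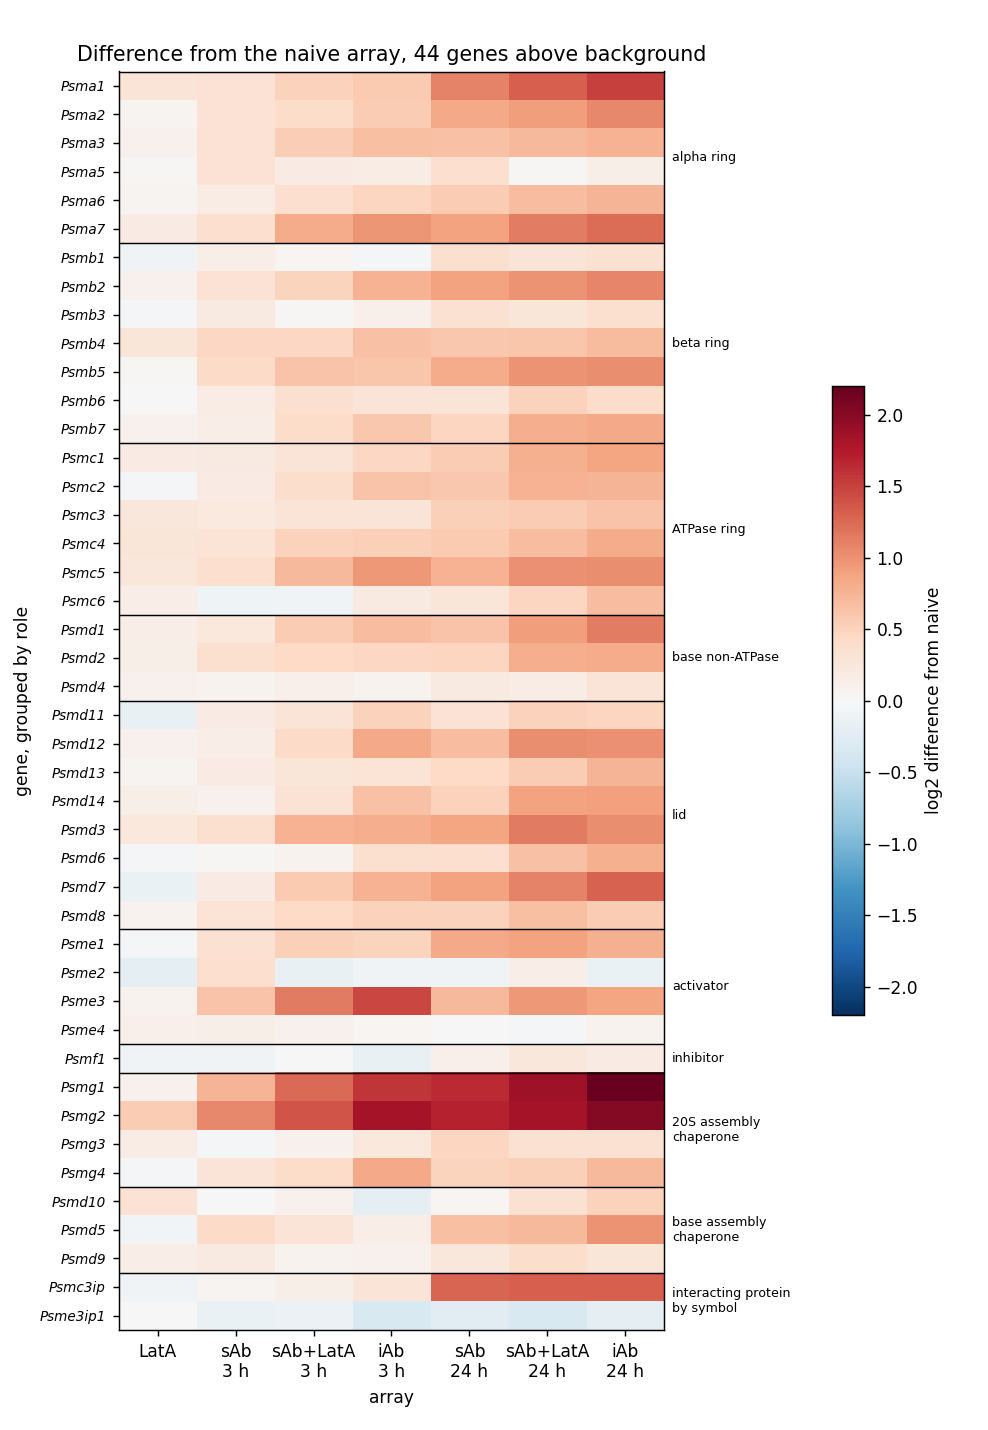
Log2 difference from naive (colour) for the 44 genes (rows, grouped by role) on the 7 other arrays (columns). Psmg1 and Psmg2 have the darkest rows, Psme3 is darkest on iAb 3 h, Psmc3ip is dark on the 24 h arrays, and Psme2, Psme4, Psmf1 and Psme3ip1 stay pale.

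The 20S core has an outer pair of alpha rings, which gate entry. All 6 alpha genes above background were higher than naive on each antibody array, and 5 of 6 passed 1.5-fold on iAb 24 h. Among all genes tested, 45.9% to 53.6% were above naive on an antibody array, and 21.2% were at least 1.5-fold higher on iAb 24 h. Psma7 was at 8.89 on naive and 9.07 with LatA, at 9.26, 9.70 and 9.86 on the 3 h arrays with sAb, sAb+LatA and iAb, and at 9.78, 10.02 and 10.12 on the 24 h arrays in that order. It had the largest iAb over sAb difference of the ring at 3 h, 1.52-fold, and 2.35-fold over naive on iAb 24 h. Psma1 was at 7.99 and 8.27 without antibody, at 8.31, 8.49 and 8.56 at 3 h and at 9.09, 9.31 and 9.49 at 24 h. Its sAb 3 h value lay close to LatA alone, while its iAb 3 h value was 1.48-fold over naive. Its 24 h values stand apart, 2.82-fold over naive with iAb.

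Psma5 was the exception of the ring. It measured 4.86 and 4.89 without antibody, 5.17, 5.04 and 5.02 at 3 h and 5.23, 4.89 and 4.99 at 24 h, which is at the edge of background throughout. Psma2, Psma3 and Psma6 were 1.69- to 2.08-fold over naive on iAb 24 h.

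The inner beta rings hold the 3 catalytic sites. Psmb5, the chymotrypsin-like subunit, was at 7.19 and 7.22 without antibody, at 7.61, 7.82 and 7.80 at 3 h and at 8.0, 8.18 and 8.22 at 24 h. Every antibody array was above both arrays without antibody, and iAb 24 h was 2.03-fold over naive. Psmb7, the trypsin-like subunit, was at 8.82 and 8.91, then 8.97, 9.23 and 9.42 at 3 h, then 9.29, 9.62 and 9.65 at 24 h. Its iAb array was the highest at either time, 1.37-fold over sAb at 3 h and 1.79-fold over naive at 24 h. Psmb6, the caspase-like subunit, differed less: 8.07 and 8.08, then 8.24, 8.42 and 8.36, then 8.35, 8.57 and 8.47, with the sAb+LatA array highest at both times and iAb 24 h 1.33-fold over naive. The promoter windows of Psmb5 and Psmb6 both hold the TGACNNNGC core shown above, and that of Psmb7 was not listed.

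Among the structural beta genes, Psmb2 was at 7.70 and 7.80, then 8.01, 8.19 and 8.46, then 8.59, 8.69 and 8.78, in the order iAb over sAb+LatA over sAb at both times. Psmb1 lacked that order, at 9.72 and 9.64, then 9.86, 9.76 and 9.68, then 10.08, 10.00 and 10.05. On iAb at 3 h it was level with naive, a difference of -0.04. Psmb3 was likewise narrow, at 5.65 and 5.62, then 5.84, 5.67 and 5.76, then 5.99, 5.92 and 6.00. Psmb4 was 1.62-fold over naive on iAb 24 h, with 4 of the 7 beta genes past 1.5-fold there, beside 21.2% of all genes.

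In the immunoproteasome, interferon-inducible subunits replace the catalytic ones. Psmb8, Psmb9 and Psmb10 were 3.08-, 3.47- and 3.57-fold over naive on iAb 24 h, more than any of the 3 constitutive subunits they replace on the same pair of arrays, and iAb minus sAb at 3 h was -0.24, 0.20 and -0.41.

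In the 19S cap, the ATPase ring unfolds substrates and opens the core. All 6 ATPase genes passed 1.5-fold on iAb 24 h against naive, and the iAb array was above the sAb array at both times for all 6. The shares of all genes were 21.2% at least 1.5-fold higher on iAb 24 h and 29.3% with iAb above sAb at both times. Psmc5 was at 7.37 and 7.62 without antibody, at 7.74, 8.08 and 8.33 at 3 h and at 8.14, 8.38 and 8.40 at 24 h. Most of its distance from naive was present on iAb 3 h, 1.95-fold, against 2.04-fold on iAb 24 h. Psmc6 behaved otherwise, at 9.27 and 9.42, then 9.18, 9.20 and 9.46, then 9.54, 9.74 and 9.95, with the sAb and sAb+LatA 3 h arrays below naive. Psmc3 had the smallest iAb over sAb difference of the ring at 3 h, 0.07, at 7.80 and 8.05, then 8.02, 8.08 and 8.09, then 8.33, 8.35 and 8.42. Psmc1, Psmc2 and Psmc4 were 1.67- to 1.82-fold over naive on iAb 24 h.

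The base also holds scaffold and receptor subunits. Psmd1, a large scaffold subunit, was at 8.34 and 8.48, then 8.57, 8.90 and 9.02, then 8.96, 9.26 and 9.46, and it had the second largest iAb minus sAb difference of all 44 genes at 24 h, 0.50. Psmd2, the other scaffold subunit, was 1.76-fold over naive on iAb 24 h. Psmd4, a receptor for ubiquitin chains, hardly differed among arrays, at 8.21 and 8.31, then 8.28, 8.33 and 8.28, then 8.40, 8.38 and 8.50.

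The lid positions the substrate and cuts off its ubiquitin. For all 8 lid genes taken by the symbol rule the iAb array was above the sAb array at both times. Of these, 6 of 8 passed 1.5-fold on iAb 24 h against naive. The shares of all genes were 29.3% and 21.2% in that order. The smallest difference of iAb minus sAb among these 8 was 0.06, for Psmd8 at 24 h. Psmd12, a structural lid subunit, was at 8.66 and 8.76 without antibody, at 8.81, 9.08 and 9.49 at 3 h and at 9.34, 9.69 and 9.67 at 24 h. The iAb 3 h array stands clear of the other 3 h arrays, 1.60-fold over sAb. Psmd14, the deubiquitinase of the lid, was at 7.39 and 7.52, then 7.49, 7.70 and 8.04, then 7.89, 8.27 and 8.29. It had the largest sAb+LatA minus sAb difference of the 44 genes at 24 h, 0.38. Psmd3 was at 7.33 and 7.57, then 7.69, 8.09 and 8.13, then 8.20, 8.47 and 8.35, so that sAb+LatA and iAb were close at either time.

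Psmd13 had the smallest iAb over sAb difference of the lid at 3 h, 0.12, at 7.87 and 7.93, then 8.05, 8.14 and 8.17, then 8.30, 8.43 and 8.62. Psmd11 was at 9.42 and 9.25, then 9.60, 9.71 and 9.92, then 9.73, 9.93 and 9.90, the only lid gene no higher at 24 h than at 3 h with iAb. Psmd7 was 2.45-fold over naive on iAb 24 h, and Psmd6 and Psmd8 were 1.72- and 1.47-fold over it. Over the 30 subunit genes of core and cap above background, 29 were above naive on iAb 3 h, with a median of 0.55. On iAb 24 h 30 were, with a median of 0.80. The shares of all genes above naive were 47.2% on iAb 3 h and 50.7% on iAb 24 h.

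The activators and the inhibitor did not move as one group. Psme3, which forms the nuclear activator that stimulates the core without ubiquitin, was at 8.23 and 8.30 without antibody, at 8.85, 9.38 and 9.70 at 3 h and at 8.94, 9.19 and 9.09 at 24 h. It was highest on iAb 3 h, 2.77-fold over naive, and had the largest iAb over sAb difference of the 44 genes at 3 h, 1.80-fold. It was also the only one of the 44 at least 1.5-fold lower at 24 h than at 3 h with iAb, a difference of -0.61, where 9.48% of all genes were. Psme1, one chain of the interferon-inducible activator, was 1.73-fold over naive on iAb 24 h.

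Psme2, the partner chain of Psme1, did not follow it, at 6.47 and 6.27, then 6.84, 6.30 and 6.40, then 6.39, 6.61 and 6.32. The sAb 3 h array was its highest, and sAb+LatA minus sAb was -0.54 at 3 h and 0.22 at 24 h. Psme1 and Psme2 were each read by 1 probe set, and a further probe set shared by Psme2 with 2 unrelated symbols is outside the 46. Psme4, a large nuclear activator, stayed between 8.55 and 8.71, at 8.58 and 8.69, then 8.71, 8.68 and 8.62, then 8.59, 8.55 and 8.65. Psmf1, the inhibitor of the core, was at 8.07 and 7.99, then 7.99, 8.08 and 7.91, then 8.18, 8.32 and 8.25, with no array beyond 1.5-fold of another.

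Against naive, the largest differences with iAb at 24 h were those of Psmg1 and Psmg2, which form the pair on which the alpha ring is assembled. Psmg1 was at 5.82 and 5.92 without antibody, at 6.56, 7.06 and 7.40 at 3 h and at 7.47, 7.69 and 7.99 at 24 h. Each antibody array was above both arrays without antibody, the stimuli kept the order sAb, sAb+LatA, iAb at both times, and iAb 24 h was 4.49-fold over naive. Psmg2 was at 6.62 and 7.18, then 7.67, 8.0 and 8.45, then 8.32, 8.45 and 8.64. It was the gene of the set with the largest difference on LatA alone, 0.55, and reached 3.54-fold over naive with iAb at 3 h and 4.04-fold at 24 h.

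Psmg3 and Psmg4, the second chaperone pair of the alpha ring, differed less. Psmg4 was at 6.03 and 5.99, then 6.31, 6.44 and 6.86, then 6.52, 6.55 and 6.75, highest on iAb 3 h at 1.77-fold over naive. Psmg3 was at 6.15 and 6.32, then 6.12, 6.25 and 6.39, then 6.62, 6.48 and 6.48, and iAb minus sAb was 0.28 at 3 h and -0.14 at 24 h. Pomp, the chaperone of beta ring assembly, is outside the symbol rule. Its signal was 8.14 and 8.0 without antibody, 8.48, 8.77 and 9.44 at 3 h and 9.10, 9.23 and 9.43 at 24 h, and its iAb 3 h array was 1.94-fold over sAb 3 h.

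The chaperones of the ATPase ring differed from those of the core. For all 3, iAb lay below sAb at 3 h and above it at 24 h, for Psmd9 by only -0.10 and 0.03. A change of direction was common: of all expressed genes, 29.3% had iAb above sAb at both times and 29.8% below at both. The rest changed direction one way or the other. Psmd5 was at 8.54 and 8.48, then 8.96, 8.82 and 8.69, then 9.21, 9.26 and 9.53, so that iAb had the lowest value of the stimuli at 3 h and the highest at 24 h. Psmd10, also known as gankyrin, showed the same crossing, at 7.20 and 7.52, then 7.20, 7.29 and 6.99, then 7.24, 7.53 and 7.70. The iAb minus sAb differences were -0.27 and 0.32 for Psmd5 and -0.20 and 0.46 for Psmd10. Psmd9 was flat, at 6.24 and 6.39, then 6.43, 6.31 and 6.33, then 6.49, 6.63 and 6.51.

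Psmc3ip, a cofactor of homologous recombination and no proteasome part, was at 5.45 and 5.37, then 5.51, 5.58 and 5.74, then 6.73, 6.77 and 6.76. The 24 h arrays are clearly set off from the other 5 and nearly equal to each other. Psme3ip1, which binds the Psme3 activator, was the only gene of the 44 below naive on all 6 antibody arrays, at 9.37 and 9.37, then 9.22, 9.24 and 9.03, then 9.14, 9.04 and 9.16.

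Immobilized antibody was compared with soluble antibody at each time, the contrast for which the stimuli were designed. At 3 h the proteasome median of iAb minus sAb was 0.25 (all genes, -0.02), and 7 of 44 genes were at least 1.5-fold higher with iAb, where 8.64% of all genes were. These 7 were Psme3, Psmg1, Psmg2, Psmd12, Psma7, Psmc5 and Psmd7. None was 1.5-fold lower, beside 10.2% of all genes. At 24 h the median was 0.20 (all genes, 0.01), and the largest difference was Psmg1 at 0.52. No proteasome gene reached 1.5-fold in either direction, beside 3.21% of all genes higher and 2.59% lower.

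The 3 h and 24 h pairs share no array. The iAb array was above the sAb array at both times for 31 of the 44 genes (70.5%) and below it at both for 3, whereas 29.3% of the 13376 expressed genes were above at both and 29.8% below at both. Psma5, Psmb1 and Psme2 were the 3 below.

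**Figure D3:**
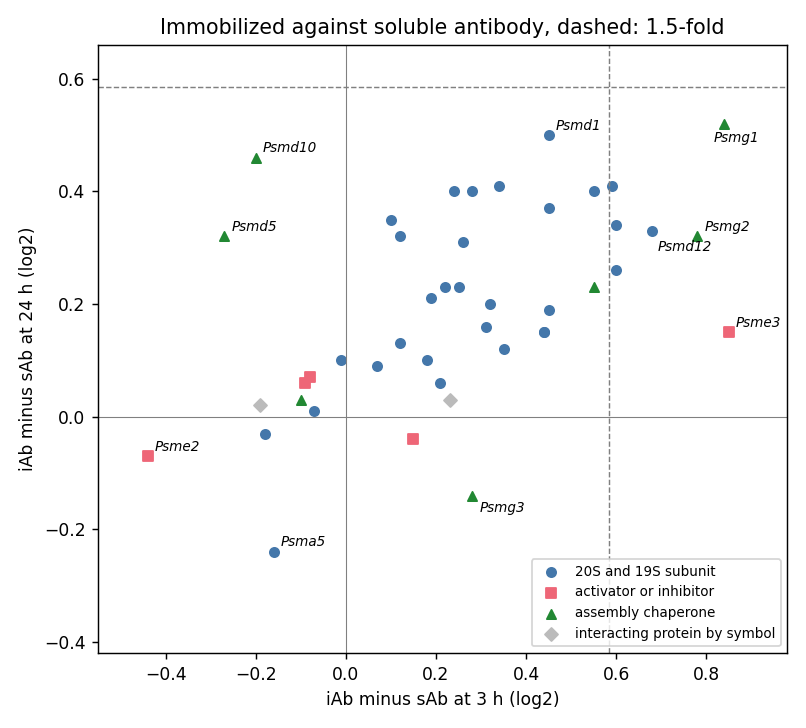
Log2 difference of iAb minus sAb at 3 h (horizontal axis) and at 24 h (vertical axis) for the 44 genes, with the marker giving the role and dashed lines 1.5-fold. Of the 44, 31 lie at the upper right, 7 pass 1.5-fold at 3 h and none at 24 h, and Psmd5 and Psmd10 lie in the upper left.

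The comparison of sAb+LatA with sAb uses the same sAb arrays. Its median was 0.13 at 3 h and 0.16 at 24 h, beside -0.04 and 0.02 for all genes. None of 44 genes was past 1.5-fold in either direction at either time. Of all genes, 2.45% and 1.82% were higher and 3.39% and 1.94% lower. Psme3 and Psmg1 had the largest differences at 3 h, 0.54 and 0.50, and Psmd14 and Psmd12 at 24 h, 0.38 and 0.35. Against sAb+LatA, iAb was higher by a median of 0.11 at 3 h and 0.07 at 24 h, beside 0.03 and 0.01 for all genes. Again none was past 1.5-fold in either direction, where 4.25% and 0.962% of all genes were higher and 4.49% and 1.06% lower. At 3 h the largest differences of iAb minus sAb+LatA were Psmg2 at 0.45 and Psmg4 at 0.42.

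The order naive, sAb, sAb+LatA, iAb, from lowest to highest, held for 28 of 44 genes at 3 h, beside 15.0% of the 13376 genes, and for 25 of 44 at 24 h, beside 15.7%. The reverse order held for none of the 44 at either time, beside 12.6% of the 13376 genes at 3 h and 9.96% at 24 h. Neighbouring arrays in this order often differed by little, as the medians of 0.11 and 0.07 between sAb+LatA and iAb show.

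The 24 h arrays were compared with the 3 h arrays within each stimulus. With sAb, 5 of 44 genes were at least 1.5-fold higher at 24 h (9.45% of all genes), with sAb+LatA 4 of 44 (13.1%) and with iAb 5 of 44 (16.1%). These counts are close to or below the shares of all genes. The medians were 0.32, 0.32 and 0.26, beside 0.02, 0.08 and 0.03 for all genes, and after centring they were 0.23, 0.18 and 0.03, beside -0.07, -0.05 and -0.20 for all genes. Psma1, Psmc3ip and Psmg1 passed with all 3 stimuli, and Psmd5 and Psmd10 with iAb alone among the 3, at 1.79- and 1.64-fold.

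An additive limma model with stimulus and time as terms, fitted to the 6 antibody arrays and 13288 genes, was the one test the design allows. It has 2 residual degrees of freedom and takes the effect of a stimulus as equal at both times. For 24 h against 3 h, 10 of 44 proteasome genes passed an adjusted p of 0.05, all higher at 24 h, beside 13.2% of all genes higher and 7.3% lower. They were Psmc3ip, Psma1, Psmg1, Psmd7, Psma2, Psmb2, Psmc6, Psmd6, Psmc1 and Psmd1. Psmc3ip had an effect of 1.14 with a standard error of 0.11 and an adjusted p of 0.00229, Psma1 one of 0.84 with a standard error of 0.11 and an adjusted p of 0.00545, and Psmg1 one of 0.71 with a standard error of 0.12 and an adjusted p of 0.012 (limma). The other 7 effects lay between 0.40 and 0.58. With arrays centred the count was 3 of 44, a smaller share than the 8.96% of all genes that were higher. When 1 array is left out, the other array of its stimulus is fitted exactly. Either array of a stimulus therefore gives the same time fit, with fewer residual degrees of freedom than the full fit. Leaving out 1 array gave 2 when either sAb+LatA array was left out (4.42% of all genes higher), 4 when either sAb array was (11.7%) and 9 when either iAb array was (11.6%).

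For iAb against sAb over both times, limma called none of the 44 genes (0.0% of all genes), although 13 of them had an unadjusted p under 0.05, all higher with iAb, beside 8.09% of all genes higher at that level. That count was 1 without the sAb 3 h array, 3 without iAb 3 h, 7 without sAb 24 h or either sAb+LatA array and 13 without iAb 24 h. Psmg1 had the smallest p, with an effect of 0.68, a standard error of 0.15 and an adjusted p of 0.257. For sAb+LatA against sAb none was called (0.0% of all genes) and none of the 44 had an unadjusted p under 0.05. That count was 4 with a variance trend, 5 with quantile normalization repeated, 1 with centring, 6 when either iAb array was left out and 2 without sAb 24 h. The median effects of the 2 contrasts were 0.23 and 0.15, beside 0.0 and -0.01 for all genes.

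**Figure D4:**
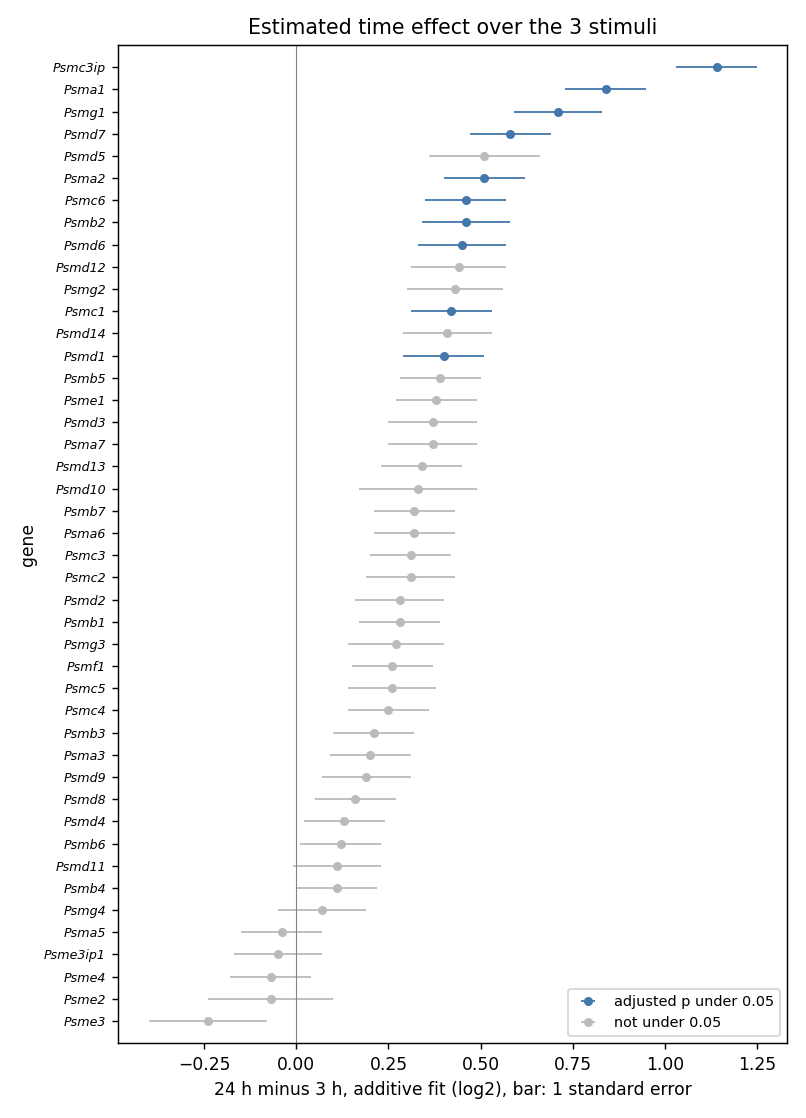
Estimated 24 h minus 3 h effect over the 3 stimuli (horizontal axis, log2, bars 1 standard error) for the 44 genes (vertical axis), from the additive limma fit. Blue genes passed the adjusted p threshold: 10 of 44, with Psmc3ip at 1.14 the largest, while Psme3 at the bottom is estimated below 0 and did not pass.

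The profiles over the 8 arrays were alike for most genes. Pearson's r of a gene with the median of the other proteasome genes had a median of 0.94 and was at least 0.9 for 27 of 44, over 8 arrays that share their scaling. Of the 13332 other genes above background, 7.56% had an r of at least 0.9 with the median of the proteasome genes. It was under 0.5 for 5: Psme3ip1 (-0.81), Psme4 (-0.30), Psme2 (-0.05), Psma5 (0.24) and Psmd10 (0.40).

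Partners of the proteasome showed mixed values. Usp14 and Uchl5, the deubiquitinases that bind the cap, were 2.46- and 3.57-fold over naive on iAb 24 h. Sem1, a lid subunit outside the symbol rule, was at 9.34 on naive, 9.78 on sAb 24 h and 9.74 on iAb 24 h. The E1 enzyme Uba6, which activates ubiquitin, was 2.12-fold over naive on iAb 3 h and 1.30-fold on iAb 24 h. Of the 4 shuttle factors measured, which carry tagged proteins to the cap, 1 passed 1.5-fold on iAb 24 h, Rad23b. Of the 6 genes of the p97 unfoldase system 2 did, Vcp and Faf1. All 8 genes of the chaperonin CCT, a folding machine used here as another large ring complex, passed it, with a median of 1.05. On that pair of arrays 21.2% of all genes were at least 1.5-fold higher. The CCT median of iAb minus sAb was 0.50 at 3 h and 0.23 at 24 h, beside 0.25 and 0.20 for the proteasome. In that contrast 3 of 8 CCT genes were at least 1.5-fold higher at 3 h and none at 24 h, beside 8.64% and 3.21% of all genes. The transcription factor genes known to drive proteasome expression differed: Nfe2l1 was at 8.26 on naive, 8.55 on iAb 3 h and 7.68 on iAb 24 h, and Nfe2l2 at 9.00, 8.14 and 8.68.

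The windows with the TGACNNNGC core belonged to genes from 1.05-fold over naive on iAb 24 h for Psme4 and 1.21-fold for Psmd9 to 2.01-fold for Psmd12 and 2.03-fold for Psmb5, in a set that ran from 0.866-fold (Psme3ip1) to 4.49-fold (Psmg1).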

How the data were processed

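The authors deposited log2 signals of 41345 probe sets on 8 arrays, normalized together by robust multi-array average. Gene symbols came from the platform annotation: 23521 probe sets had 1 symbol, 1820 had several and 16004 were not listed. For a gene with several single-symbol probe sets the one with the highest mean was used, as for 3 of the 46 proteasome genes. Levels were not compared between genes, since probe sets differ in brightness. Differences were taken between log2 values and counted at 1.5-fold among genes above background on either array. Each condition had 1 array, which limits the precision, and the p-values of the additive fit rest on 2 residual degrees of freedom. That fit used limma 3.58.1 in R 4.3.3 (lmFit, eBayes, Benjamini-Hochberg over 13288 genes) and was tested on simulated data. Python 3.11.15 with pandas 2.3.3 did the rest.

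Values on all 8 arrays are given for Psmb5, Psmb6 and Psmb7, for the genes of each role with the highest and lowest iAb minus sAb difference at 3 h, and for the highest and lowest 2 of each comparison. The proteasome genes, roles and lists were chosen with earlier results of these data known. Alternatives were centred arrays, repeated quantile normalization, no or a stricter (99th percentile) background filter, the mean of probe sets, other fold thresholds, a variance trend and leaving out 1 array. No paired analysis of replicates was possible because each condition had 1 array.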

Additional observations from a re-analysis of the deposited data

Results flagged for a closer look

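The differences below were not tested, since each effect rests on 2 arrays. Genes were listed when the same contrast had opposite directions in 2 settings and both effects were at least 0.1 on the log2 scale. Psmd10 had iAb minus sAb of -0.20 at 3 h and 0.46 at 24 h, a difference of 0.66 between times. Psmd5 had -0.27 and 0.32, a difference of 0.59, and Psmg3 0.28 and -0.14, a difference of -0.42. For sAb+LatA minus sAb, Psme2 had -0.54 at 3 h and 0.22 at 24 h (0.76 apart), Psmd9 had -0.13 and 0.14 (0.27 apart) and Psmg3 had 0.13 and -0.14 (a difference of -0.27). For 24 h minus 3 h, Psme2 had -0.45 with sAb and 0.31 with sAb+LatA, 0.76 apart, and Psmg4 had 0.21 with sAb and -0.10 with iAb, a difference of -0.31.

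Some probe sets outside the comparisons also carried signal above background on all 8 arrays and passed 1.5-fold. The probe set that the annotation gives to both Psma4, the alpha ring gene missing from the 46, and AY074887 was at 8.80 on naive and 9.96 on iAb 24 h, a difference of 1.16. The second probe set of Psmc2 was at 6.92 and 7.86, a difference of 0.94, beside 0.74 for the one used. The probe set given to Psme2 together with 2 other symbols went the other way, at 8.74 on naive and 8.10 on iAb 24 h, a difference of -0.64. On iAb 3 h it was at 7.56, a difference of -1.18 from naive and of -1.56 from sAb 3 h. The probe set shared by Armc9 and Psmd1 did not pass 1.5-fold on iAb 24 h against naive (0.49) and was at -0.58 for iAb minus sAb at 3 h.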

How the results depend on the processing

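With each array centred, the number of proteasome genes at least 1.5-fold over naive was 11 with sAb 24 h and 18 with iAb 24 h (11.3% and 14.7% of all genes), and 24 h over 3 h gave 2 with sAb+LatA and 3 with iAb (9.1% and 10.4%). At a lower fold threshold (0.32 on the log2 scale) the counts over naive were 2 (LatA), 13, 24 and 27 (sAb, sAb+LatA and iAb at 3 h) and 34 (sAb 24 h), beside 7.22%, 17.8%, 20.4%, 24.6% and 29.0% of all genes. At that fold iAb over sAb gave 16 at 3 h and 12 at 24 h (19.2% and 12.8% of all genes), sAb+LatA over sAb 8 and 4 (9.85% and 10.7%), iAb over sAb+LatA 5 at 3 h (16.2%), and 24 h over 3 h 22, 22 and 17 with sAb, sAb+LatA and iAb (21.3%, 27.1% and 28.2%). At 2-fold the counts over naive were 1, 3 and 3 at 3 h (1.65%, 3.99% and 7.2% of all genes) and 4, 9 and 13 at 24 h (7.19%, 9.58% and 11%), iAb over sAb at 3 h gave 0 (2.57%), and 24 h over 3 h gave 1 with each stimulus (3.21%, 4.8% and 7.33%). In the additive fit for time, 3 of 44 genes passed after centring and 5 without a background filter, and leaving out 1 array gave 2 to 9. Of the 2851 genes called over all after centring, 41.8% were higher at 24 h, against 64.3% of 2719 before. The cause of these shifts was not tested. No alternative, the variance trend and leaving out an array included, gave a proteasome gene passing for either stimulus contrast, although without iAb 24 h the iAb against sAb contrast called 1004 of all 13288 genes (7.56%).

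Single-gene differences past 1.5-fold were recomputed in 630 combinations of gene, comparison and scaling, filter or probe set rule. In 572 they stayed past it, in 58 they dropped under it, 38 of these with centring, and none turned its direction. A changed background filter alters no value, so all 126 differences stayed past 1.5-fold by construction under each of these filters. The mean of probe sets can alter only genes with several probe sets, and 123 of 126 stayed. With centring 88 of 126 stayed, and with repeated quantile normalization 109 of 126. Of 80 recomputed medians, 74 moved by under 0.1. With 1 array per condition, small differences such as those between iAb and sAb+LatA cannot be set against replicate spread.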
